A study of Saccharomyces cerevisiae with 7 samples.

Results

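The 53 genes described here encode the machinery that builds the spindle of budding yeast (Saccharomyces cerevisiae), moves the nucleus and holds chromosomes on microtubules: tubulins, microtubule-associated proteins, kinesins, dynein and dynactin, kinetochore complexes and the spindle checkpoint. They were chosen by their symbols, with earlier results of these data already known. The platform annotation named probes for 45 of them, and all 45 were measured on enough arrays to be tested, 44 of them on all 7 arrays. TUB1, TUB3, DYN1, DYN2, NUM1, DAD3, DAD4 and MAD1 were matched to no probe and are not analysed here. The series as a whole gave 5879 features, of which 5344 were named genes and 535 were probes with no gene name. The mutants were deletions of arp6 and of swr1, both of which encode subunits of SWR-C, a complex that exchanges histone H2A in nucleosomes for the variant Htz1, and each array compared a mutant (arp6Δ on 4 arrays, swr1Δ on 3) with wild type, all in the W303 background. The wild type was the second channel of every array, so both mutants were set against it. Mutant and wild-type strains were grown alike in YPD, without treatment, at 25 °C to an optical density of 1. The sources used here do not give the strains' mating type or say whether a deletion is represented by more than 1 clone.

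Microtubules in this yeast grow from the spindle pole bodies, which stay in the nuclear envelope, so that nuclear microtubules form the spindle and cytoplasmic microtubules pull the whole nucleus toward the bud. The kinetochore is assembled in layers on the centromeric nucleosome: the inner proteins Mif2 and the COMA complex lie next to the chromatin, the Mtw1 complex joins them to the Ndc80 complex, and Ndc80 and the Dam1 ring grip the microtubule. The checkpoint proteins hold the cell before anaphase while attachments are missing, and dynein with its activator dynactin slides cytoplasmic microtubules along the bud cortex.

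All values are log2 ratios of mutant over wild type on 1 array, so −1 stands for a halved signal. A mean is given ± SD over the 4 arp6Δ or the 3 swr1Δ arrays. The ratios hold no absolute level, and the level of 1 gene was not set against that of another. The labels call the arrays replicates without naming cultures, so the p-values measure the spread between these arrays. A change was called where the ratio differed from 0 in limma's moderated test on the mutant's own arrays, with a Benjamini-Hochberg adjusted p under 0.05 over all 5879 features. The mutants were also set against each other as arp6Δ minus swr1Δ.

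The arrays differed in ways that touch every result below. The arp6Δ ratios spread more than the swr1Δ ratios, with a median SD per gene of 0.517 against 0.197. The arp6Δ arrays went in pairs, with a correlation across genes of 0.668 between replicates 1 and 2 and 0.837 between replicates 3 and 4, and of 0.255 to 0.367 across the pairs. Among swr1Δ arrays, replicates 2 and 3 correlated at 0.811, and replicate 1 with them at 0.494 and 0.445. Along genes sorted by systematic name, 394 named genes lay in stretches where arp6Δ replicates 1 and 2 held the value of the gene 1 row later, and 84 where it came from 2 rows later, so that on those arrays the value appears to be another gene's. The placement of another 645 was not settled. Of the members, CIN8 and TUB2 lay in stretches displaced by 1 row and NDC80 and DSN1 in stretches displaced by 2 rows, while BIM1, ARP1, ARP10, DUO1, DAD1 and SPC25 were not settled; this does not touch the swr1Δ values. The deleted genes went with the labels in direction only. ARP6 averaged −1.09 ± 0.31 in arp6Δ (2.13-fold down) and 0.10 ± 0.17 in swr1Δ. SWR1 averaged 1.15 ± 0.37 in arp6Δ and −0.82 ± 0.34 in swr1Δ (1.76-fold down). These ratios understate the loss of a deleted gene, and whether other ratios are compressed likewise was not tested. HTZ1 averaged −0.41 ± 0.15 in arp6Δ and 0.36 ± 0.17 in swr1Δ.

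In swr1Δ cells 9 of the 45 members were called (20.0%), against 22.2% of all features, so the share called was near that of the series. Their directions were uneven: 8 members fell (17.8%, against 10.9% of all features called lower) and 1 rose (2.22%, against 11.2% called higher). The genes that fell were spread over the machinery: JNM1 of dynactin, NDC80 of the outer kinetochore, BIR1 of the chromosomal passenger complex, NDL1 of the dynein pathway, DAD2 of the Dam1 ring, the midzone gene ASE1, OKP1 of the inner kinetochore and the motor gene KAR3. SPC25, which encodes a partner of Ndc80, rose. The median log2 ratio of the 45 members was −0.16, against 0.00 over all features, and 38 of the 45 means were below 0. All 3 arrays were below 0 for 19 of 45 members (42.2%, against 31.5% of features measured on all 3) and above 0 for 4 members (8.89%, against 30.8%).

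This lean came from 2 of the 3 arrays. The median of the members was 0.00 on swr1Δ replicate 1, −0.34 on replicate 2 and −0.27 on replicate 3, whereas the median of all features was 0.00 on each. Replicates 2 and 3 were both below 0 for 34 members. Without replicate 1, 27 members were called, the 9 among them (60.0%, against 53.9% of features). The arrays left, replicates 2 and 3, correlated at 0.811, so that fit leaves out their distance from replicate 1. Without replicate 2, DSN1 and JNM1 were called (4.44%, against 4.81%), and without replicate 3, DSN1, JNM1 and NDC80 (6.67%, against 6.84%). In these 3 fits the members' share thus moved with that of the series. JNM1 was called with all 3 arrays and in each of these 3 fits, and DSN1 in each of the 3 fits but not with all 3 arrays. Without replicate 2 the fit gave each of the 9 members called with all 3 arrays the same standard error, 0.246. A call in that fit thus did not draw on the gene's own spread. In a fit of all 7 arrays, where the wider arp6Δ arrays enter the estimate of the spread, swr1Δ had no call among the members or among all features (0%).

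**Figure D1:**
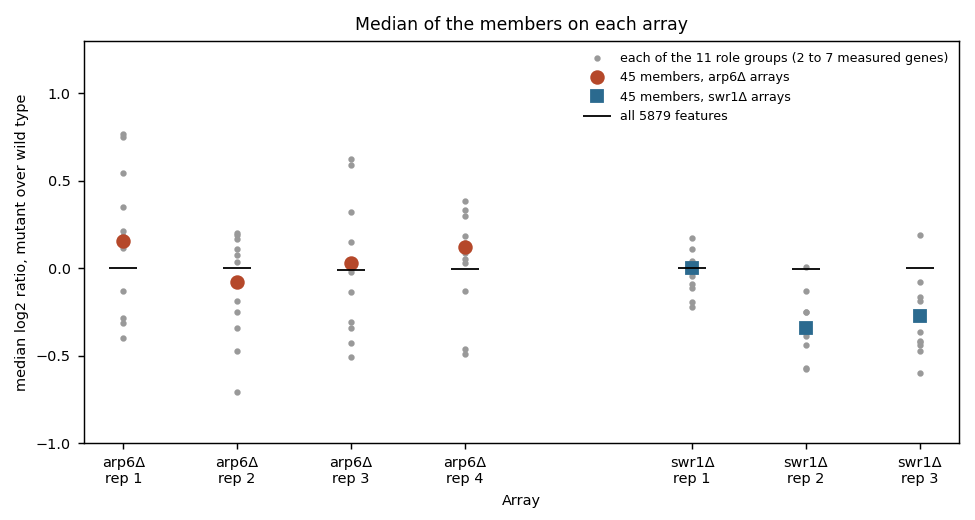
Median log2 ratio (vertical axis, mutant over wild type) on each array (horizontal axis) for the 45 members (large symbols), for each of the 11 role groups (grey points) and for all 5879 features (black bars). The members' median lay at −0.34 and −0.27 on swr1Δ replicates 2 and 3 and at 0.00 on replicate 1, and between −0.08 and 0.16 on the arp6Δ arrays.

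In arp6Δ cells 1 of the 45 members was called (2.22%, against 5.36% of all features, or 3.27% called lower). This was CTF19, an inner kinetochore gene, which fell with an adjusted p of 0.0486. The median of the members was −0.02, as over all features, and 23 of the 45 means were below 0. All 4 arrays were above 0 for 9 of 44 members (20.5%, against 20.6% of features) and below 0 for 5 (11.4%, against 19.8%), and for 11 members replicates 1 and 2 lay on one side of 0 and replicates 3 and 4 on the other. The median SD of a member was 0.42 over the arp6Δ arrays and 0.28 over the swr1Δ arrays, so changes of the size called in swr1Δ were harder to call in arp6Δ. In simulated independent arrays with the spreads of all features (median SD 0.517 and 0.197), 17.4% of changes of 1 on the log2 scale were recovered for arp6Δ and 74.5% for swr1Δ. The members' own SDs lay closer together, so these rates do not give the gap for the members. The CTF19 call was lost on leaving out any of the 4 arrays, and no member was then called. Those fits called few features of any kind: 70, 0, 5 and 3 without replicates 1 to 4, against 315 with all 4 arrays. Over all 7 arrays 6 members were called in arp6Δ (13.3%, against 26.8% of features): CTF19 and NDL1 lower, and SLI15, SPC25, STU1 and VIK1 higher. In that fit the tighter swr1Δ arrays enter the estimate of the spread, which can understate the spread of the arp6Δ arrays. On replicates 3 and 4 alone, a choice made after seeing the data, 10 members were called (22.2%, against 43.5% of features). These arrays are a pair that correlated at 0.837, so that test leaves out the spread between the pairs.

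No member was called in the difference between the mutants, against 7.03% of all features, and 9 members had an unadjusted p under 0.05 (20.0%, against 28.9% of features). The smallest adjusted p-values were those of CTF19 (0.0668), STU1 (0.0705) and KAR3 (0.0834). The arp6Δ arrays and the swr1Δ arrays did not overlap for 10 of 44 members (22.7%, against 32.2% of features). By the test that the study's methods name, a t-test at 0.05 with a limit of 1.25-fold and no adjustment, 7 members passed in arp6Δ (15.6%, against 21.1% of features) and 4 in swr1Δ (8.89%, against 14.5%), and after Benjamini-Hochberg adjustment of that test none did.

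**Figure D2:**
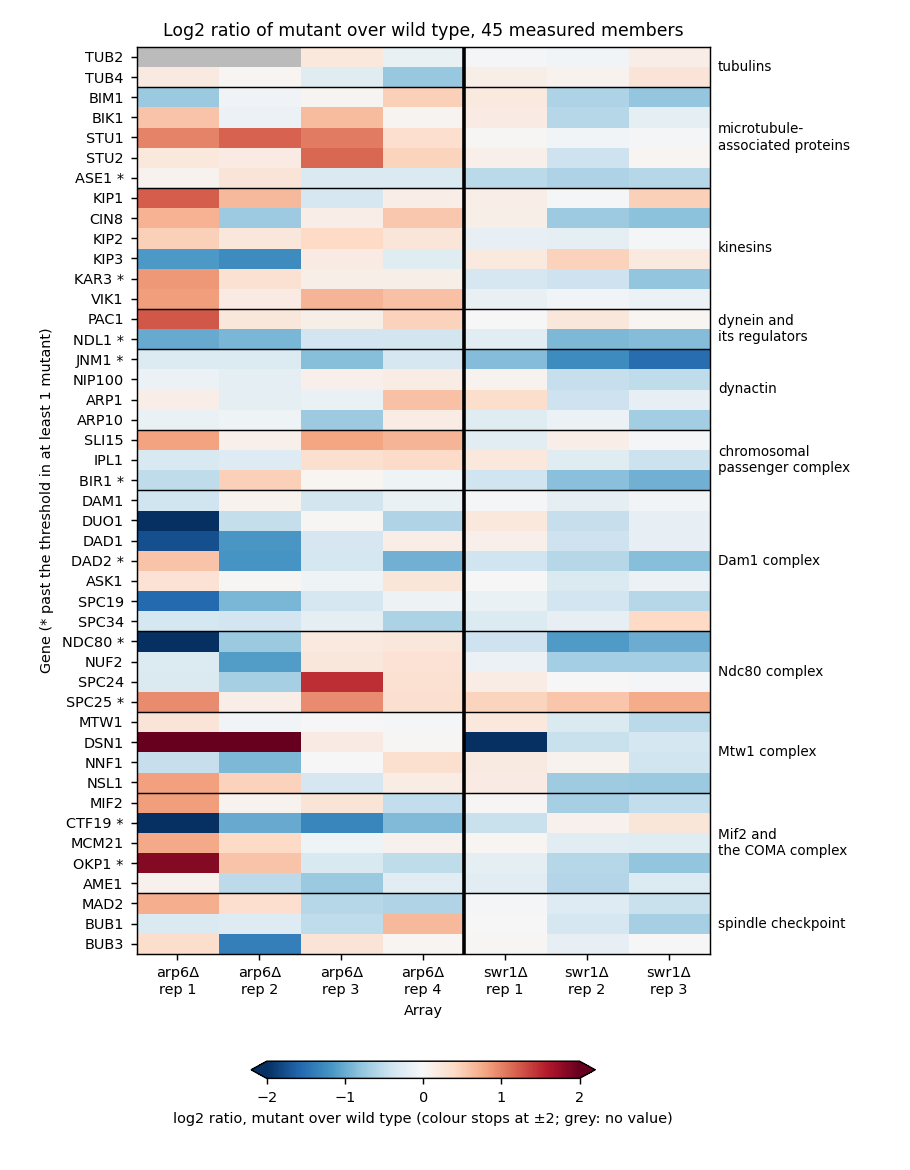
Log2 ratio of mutant over wild type for the 45 measured members (rows, by role group) on the 4 arp6Δ arrays and the 3 swr1Δ arrays (columns); red is above and blue below wild type, colours stop at ±2, and an asterisk marks a call in at least 1 mutant. The swr1Δ columns of replicates 2 and 3 are mostly blue, with 34 members below 0 on both, and the arp6Δ columns differ between replicates 1 and 2 and replicates 3 and 4.

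Of the tubulin genes only TUB2 and TUB4 were measured, and both lay close to wild type in swr1Δ. TUB1 and TUB3 were matched to no probe. TUB2 (YFL037W), the single β-tubulin gene, had no value on arp6Δ replicates 1 and 2 and read 0.20 and −0.15 on replicates 3 and 4, against −0.03, −0.06 and 0.13 on the swr1Δ arrays. TUB4 (YLR212C), which encodes the γ-tubulin that nucleates microtubules at the spindle pole body, read 0.18, 0.04, −0.25 and −0.77 in arp6Δ and 0.12, 0.08 and 0.25 in swr1Δ. Its swr1Δ arrays were all slightly above 0, its arp6Δ arrays lay on both sides, and neither gene was called in either mutant.

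Among the 5 microtubule-associated proteins, ASE1 fell in swr1Δ and STU1 stood above wild type on all arp6Δ arrays without passing the test. ASE1 (YOR058C), a crosslinker of antiparallel microtubules in the spindle midzone, read 0.08, 0.25, −0.29 and −0.28 in arp6Δ and −0.54, −0.62 and −0.58 in swr1Δ. The 3 swr1Δ values were the tightest of the called members, lay below every arp6Δ value, and averaged −0.58 ± 0.04 (adjusted p = 0.0227), while the arp6Δ values fell on both sides of 0. STU1 (YBL034C), the CLASP-family gene needed for spindle stability, read 1.00, 1.18, 1.05 and 0.33 in arp6Δ and 0.03, −0.05 and −0.04 in swr1Δ. The groups did not overlap, but the arp6Δ mean of 0.89 ± 0.38 had an adjusted p of 0.0691 and the difference of 0.91 one of 0.0705. The plus-end proteins followed in part: STU2, a microtubule polymerase, averaged 0.49 ± 0.45 in arp6Δ and −0.08 ± 0.28 in swr1Δ, and BIM1 and BIK1, plus-end tracking proteins, lay between −0.77 and 0.63 on every array, with no call.

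Of the 6 kinesin genes, KAR3 fell in swr1Δ and none was called in arp6Δ. KAR3 (YPR141C), the minus-end-directed motor used in the spindle and in nuclear fusion, read 0.87, 0.30, 0.12 and 0.12 in arp6Δ and −0.33, −0.42 and −0.79 in swr1Δ. It was above wild type on every arp6Δ array and below it on every swr1Δ array, and fell by 0.52 ± 0.25 in swr1Δ (adjusted p = 0.0383), with a difference between the mutants of 0.87 (adjusted p = 0.0834). VIK1, which encodes a non-motor partner of Kar3, went the same way in sign, at 0.84, 0.16, 0.68 and 0.58 in arp6Δ and −0.14, −0.06 and −0.11 in swr1Δ, and was called in neither. KIP3 (YGL216W), a motor that also shortens microtubules, read −1.16, −1.26, 0.17 and −0.25 in arp6Δ and 0.20, 0.46 and 0.20 in swr1Δ. Its low arp6Δ values came from replicates 1 and 2, and its swr1Δ mean of 0.29 ± 0.15 (adjusted p = 0.11) was the second highest of the members. KIP2, which carries dynein regulators to plus ends, averaged 0.33 ± 0.12 in arp6Δ and −0.14 ± 0.08 in swr1Δ, with no overlap and no call. Of the spindle-elongating motors, KIP1 averaged 0.41 ± 0.67 in arp6Δ and 0.19 ± 0.26 in swr1Δ, and CIN8, whose arp6Δ replicates 1 and 2 are displaced, averaged −0.48 ± 0.52 in swr1Δ.

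**Figure D3:**
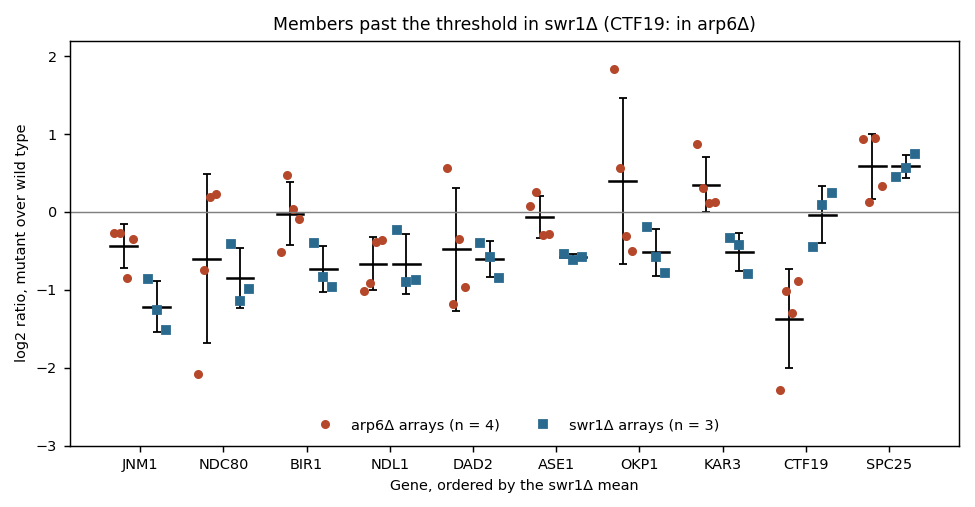
Log2 ratio of mutant over wild type (vertical axis) on every array for the 10 members called in swr1Δ or, for CTF19, in arp6Δ (horizontal axis, by swr1Δ mean); points are arrays, bars the mean ± SD over 4 arp6Δ or 3 swr1Δ arrays. JNM1 had the lowest swr1Δ mean, at −1.21, and NDC80 the widest arp6Δ spread, with its arp6Δ replicates 1 and 2 taken from displaced rows.

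The dynein pathway held the member with the lowest swr1Δ mean. JNM1 (YMR294W), the dynactin subunit related to animal dynamitin, read −0.27, −0.27, −0.85 and −0.34 in arp6Δ and −0.86, −1.26 and −1.52 in swr1Δ. Every array of both mutants was below wild type, and the swr1Δ arrays lay below the arp6Δ arrays, the nearest by 0.01 or less. The swr1Δ mean was −1.21 ± 0.33, a 2.32-fold drop (adjusted p = 0.0214), the arp6Δ mean was −0.43 ± 0.28 (adjusted p = 0.225), and the difference of 0.78 was not called (adjusted p = 0.102). The other dynactin genes did not follow JNM1 in size. NIP100, which encodes the large microtubule-binding subunit, averaged −0.02 ± 0.17 in arp6Δ and −0.30 ± 0.32 in swr1Δ, and ARP1, the filament-forming actin-related subunit, averaged 0.10 ± 0.35 and ARP10, a subunit at the filament's end, −0.20 ± 0.37 in arp6Δ. In swr1Δ, ARP1 averaged −0.07 ± 0.39 and ARP10 −0.35 ± 0.30, and none of the 3 was called.

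Of the dynein regulators, NDL1 (YLR254C), related to animal NudE, read −1.01, −0.91, −0.39 and −0.36 in arp6Δ and −0.23, −0.90 and −0.87 in swr1Δ. All 7 arrays were below wild type and the mutants' ranges overlapped, with equal means of −0.67 ± 0.34 in arp6Δ (adjusted p = 0.111) and −0.67 ± 0.38 in swr1Δ (adjusted p = 0.0338), and the difference between the mutants had an adjusted p of 0.999. PAC1, the LIS1-related regulator that works with Ndl1, lay at 1.24, 0.22, 0.12 and 0.47 in arp6Δ and 0.00, 0.23 and 0.04 in swr1Δ. PAC1 was thus at or above wild type on all 7 arrays, on which NDL1 was below it, and was not called.

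The chromosomal passenger complex corrects faulty attachments through the Aurora kinase Ipl1, and its gene BIR1 fell in swr1Δ. BIR1 (YJR089W), the survivin-related subunit, read −0.51, 0.47, 0.04 and −0.09 in arp6Δ and −0.39, −0.83 and −0.96 in swr1Δ. The swr1Δ values averaged −0.73 ± 0.30, a 1.66-fold drop (adjusted p = 0.0227), and arp6Δ replicate 1 lay within their range. SLI15 (YBR156C), which encodes the INCENP-related scaffold, stood at 0.80, 0.11, 0.79 and 0.68 in arp6Δ, above wild type on each array (0.59 ± 0.33, adjusted p = 0.137), and at −0.22, 0.14 and −0.03 in swr1Δ. IPL1 itself averaged 0.04 ± 0.37 in arp6Δ and −0.15 ± 0.33 in swr1Δ.

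Of the 7 measured genes of the Dam1 ring, which tracks the shrinking end of the kinetochore microtubule, DAD2 fell in swr1Δ. DAD2 (YKR083C) read 0.57, −1.18, −0.35 and −0.97 in arp6Δ and −0.39, −0.57 and −0.85 in swr1Δ. Its swr1Δ arrays were all below wild type (−0.61 ± 0.23, adjusted p = 0.0268) and inside the wide arp6Δ range. All 7 swr1Δ means of the ring were below 0, between −0.61 and −0.01, with a median of −0.14. In arp6Δ 6 of the 7 were below 0 with a median of −0.48, the lowest median of the 11 role groups, and none was called. The lowest arp6Δ mean, that of DUO1 (YGL061C), rested on 1 array: DUO1 read −3.92, −0.47, 0.03 and −0.60 in arp6Δ (−1.24 ± 1.81, adjusted p = 0.246) and 0.21, −0.47 and −0.16 in swr1Δ. DAD1 and SPC19 were lowest on the same pair, replicates 1 and 2, at −1.76 and −1.16 for DAD1 and at −1.55 and −0.92 for SPC19, against −0.34 and 0.13, and −0.34 and −0.10, on replicates 3 and 4.

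The Ndc80 complex has 4 subunits, Ndc80 with Nuf2 at the microtubule end and Spc24 with Spc25 at the kinetochore end, and in swr1Δ NDC80 fell and SPC25 rose. NDC80 (YIL144W) read −2.08, −0.75, 0.19 and 0.23 in arp6Δ, low only on the 2 displaced arrays, and −0.42, −1.14 and −0.99 in swr1Δ, below wild type on each array. It fell by 0.85 ± 0.38 in swr1Δ, a 1.80-fold drop (adjusted p = 0.0227). NUF2 averaged −0.22 ± 0.66 in arp6Δ and −0.49 ± 0.32 in swr1Δ (adjusted p = 0.0534), and SPC24 averaged 0.21 ± 0.93 in arp6Δ and 0.03 ± 0.10 in swr1Δ. SPC25 (YER018C) was the 1 member called higher, at 0.94, 0.13, 0.95 and 0.33 in arp6Δ and 0.45, 0.56 and 0.75 in swr1Δ. It was above wild type on all 7 arrays, with means of 0.59 ± 0.42 in arp6Δ (adjusted p = 0.161) and 0.58 ± 0.15 in swr1Δ (adjusted p = 0.0236), and its placement on arp6Δ replicates 1 and 2 was not settled.

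The Mtw1 complex, the bridge between inner and outer kinetochore, held the highest single arp6Δ ratio and the lowest single swr1Δ ratio of all members, both of DSN1 (YIR010W). It read 2.81, 2.07, 0.17 and 0.03 in arp6Δ and −2.49, −0.45 and −0.35 in swr1Δ. All arp6Δ arrays lay above all swr1Δ arrays, but the high arp6Δ values stood on the displaced replicates 1 and 2 and the lowest swr1Δ value on replicate 1 alone. The arp6Δ mean was thus 1.27 ± 1.39 (adjusted p = 0.159) and the swr1Δ mean −1.10 ± 1.21 (adjusted p = 0.082), neither called. In swr1Δ the fits called DSN1 on leaving out any 1 of the 3 arrays, at −0.40 without replicate 1, −1.42 without replicate 2 and −1.47 without replicate 3. The call without replicate 2 came from a fit that did not use a gene's own spread, so it takes no account of the gap between −2.49 and −0.35. MTW1, NNF1 and NSL1 lay between −0.89 and 0.82 on every array, with swr1Δ means of −0.21, −0.05 and −0.43 and no call.

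**Figure D4:**
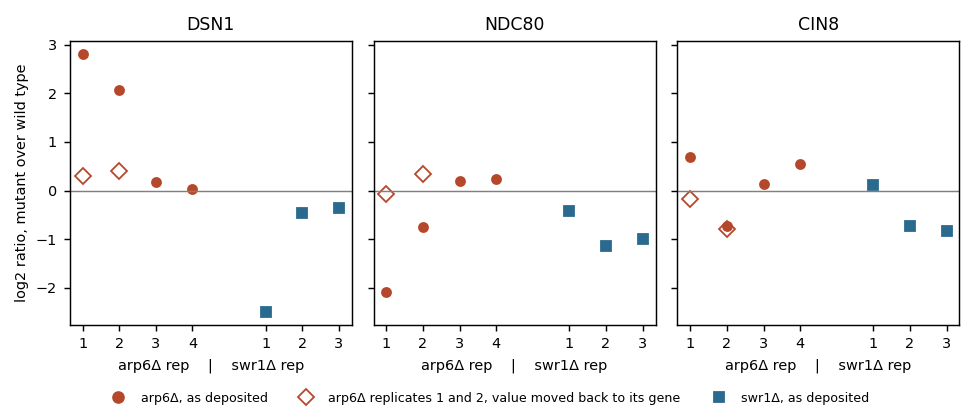
Log2 ratio of mutant over wild type (vertical axis) on each array (horizontal axis) for DSN1, NDC80 and CIN8, as deposited (filled) and, for arp6Δ replicates 1 and 2, with the value moved back to its gene (open diamonds). The DSN1 values of 2.81 and 2.07 became 0.31 and 0.40, and the NDC80 values of −2.08 and −0.75 became −0.07 and 0.33, close to replicates 3 and 4. Agreement with replicates 3 and 4 was used to find the displaced stretches, so this closeness is partly built in.

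With the displaced values of arp6Δ replicates 1 and 2 read from the rows where the stretch had put them, DSN1 and NDC80 came closer to the other arp6Δ arrays and CIN8 did not. The stretches were found by the agreement of replicates 1 and 2 with replicates 3 and 4, with these genes included. Coming closer is therefore partly built in and is no separate support for the move. After the shift, the 2 pairs correlated at 0.26 in stretches displaced by 2 rows and at 0.42 in those displaced by 1 row. DSN1 then read 0.31 and 0.40 on replicates 1 and 2, next to 0.17 and 0.03 on replicates 3 and 4, and its mean fell to 0.23 (adjusted p = 0.471). NDC80 read −0.07 and 0.33 next to 0.19 and 0.23, and its mean turned from −0.60 as deposited to 0.17 (adjusted p = 0.587). CIN8 read −0.18 and −0.80 next to 0.13 and 0.54, and its mean turned from 0.16 to −0.077. With these values NDC80 lay between −0.07 and 0.33 in arp6Δ and below wild type on all swr1Δ arrays, a difference of 1.02 with an adjusted p of 0.0501. No member gained or lost a call in either mutant by the move.

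Of the inner kinetochore genes, whose products include the COMA complex, CTF19 was called lower in arp6Δ and OKP1 in swr1Δ, and neither differed between the mutants by the test. CTF19 (YPL018W), a subunit of COMA that also brings cohesin to the pericentromere, read −2.29, −1.01, −1.30 and −0.89 in arp6Δ and −0.44, 0.09 and 0.25 in swr1Δ. It was low on all 4 arp6Δ arrays, on both sides of 0 in swr1Δ, and the groups did not overlap. The arp6Δ mean was −1.37 ± 0.63, a 2.59-fold drop (adjusted p = 0.0486), the swr1Δ mean −0.04 ± 0.36 (adjusted p = 0.883) and the difference −1.34 (adjusted p = 0.0668). Leaving out 1 arp6Δ array gave CTF19 means of −1.07 to −1.53 and adjusted p-values of 0.0604 to 0.127.

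OKP1 (YGR179C), one of the essential COMA genes, read 1.83, 0.57, −0.31 and −0.51 in arp6Δ and −0.19, −0.58 and −0.79 in swr1Δ. Its arp6Δ arrays were above wild type in replicates 1 and 2 and below it in replicates 3 and 4 (0.40 ± 1.07), and it fell by 0.52 ± 0.30 in swr1Δ (adjusted p = 0.0441). AME1, the other essential subunit, averaged −0.35 ± 0.37 in arp6Δ and −0.36 ± 0.20 in swr1Δ (adjusted p = 0.074), MCM21 0.29 ± 0.37 in arp6Δ and −0.14 ± 0.16 in swr1Δ, and the CENP-C gene MIF2 0.17 ± 0.54 in arp6Δ and −0.38 ± 0.36 in swr1Δ. All 5 swr1Δ means of this group were below 0.

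The 3 measured spindle checkpoint genes were called in neither mutant. BUB1 (YGR188C), the checkpoint kinase, read −0.28, −0.25, −0.50 and 0.66 in arp6Δ and 0.00, −0.34 and −0.66 in swr1Δ, the lowest swr1Δ mean of the group (−0.33 ± 0.33, adjusted p = 0.135). BUB3 (YOR026W), its binding partner, read 0.35, −1.37, 0.25 and 0.03 in arp6Δ, where replicate 2 alone was low, and 0.02, −0.16 and −0.02 in swr1Δ. MAD2, whose product inhibits the anaphase-promoting complex, averaged −0.02 ± 0.67 in arp6Δ and −0.24 ± 0.20 in swr1Δ.

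Genes that work beside the members were read as 10 lists of 129 genes, of which 115 were measured. In arp6Δ 1 of these rose and 2 fell (2.61% called, against 5.36% of all features), and in swr1Δ 11 rose and 16 fell (23.5%, against 22.2%). Those that fell in arp6Δ were KAR9 and CLB1, and SVS1 rose. KAR9 (YPL269W) acts in the pathway that orients the spindle by guiding microtubules along actin cables before dynein acts, and it read −1.58, −1.06, −1.50 and −1.23 in arp6Δ and −0.20, −0.17 and −0.41 in swr1Δ. All arrays were below wild type, the arp6Δ arrays below the swr1Δ arrays, with means of −1.34 ± 0.24 (adjusted p = 0.032) in arp6Δ and −0.26 ± 0.13 in swr1Δ, and the difference of −1.08 was called (adjusted p = 0.0386). CLB1, a mitotic cyclin gene, averaged −1.19 ± 0.11 in arp6Δ (adjusted p = 0.034) and −0.14 ± 0.10 in swr1Δ, again with a called difference of −1.05 (adjusted p = 0.0337). SVS1, a cell wall gene that peaks at the start of the cycle, rose in both, by 1.73 ± 0.38 in arp6Δ (adjusted p = 0.0279) and 0.74 ± 0.19 in swr1Δ (adjusted p = 0.0225). The 3 arp6Δ calls were lost on leaving out any 1 arp6Δ array (adjusted p 0.0507 to 0.129) and with the array pairs as random blocks (0.0716 to 0.0897), and the swr1Δ call of SVS1 was lost without replicate 2 (0.0617). The called differences of KAR9 and CLB1 were lost without any 1 swr1Δ array (0.0895 to 0.199) and without arp6Δ replicate 3 or 4 (0.0588 to 0.0822). All these fits called fewer features of any kind, so the losses are not particular to these genes. For arp6Δ, 0 to 70 features were called without 1 array and 21 with the blocks, against 315. For swr1Δ, 279 were called without replicate 2, against 1303. For the difference, 3 were called without any 1 swr1Δ array, and 141 and 5 without arp6Δ replicates 3 and 4, against 413.

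In swr1Δ the lowest of the listed genes were YKE2 and KAR1. YKE2 (YLR200W), a subunit of prefoldin, the chaperone that hands new tubulin and actin to their folding machine, read 1.05, −0.01, 0.08 and 0.57 in arp6Δ and −0.58, −1.03 and −1.48 in swr1Δ. The swr1Δ arrays were all low and the arp6Δ arrays at or above wild type, and the swr1Δ mean was −1.03 ± 0.45 (adjusted p = 0.0225), with a called difference of 1.46 (adjusted p = 0.0448) that was lost without any 1 swr1Δ array (0.079 to 0.219) and without arp6Δ replicate 3 or 4 (0.0601 and 0.0941). As given above, those fits called between 3 and 141 features in all, against 413, so this loss is not particular to YKE2. KAR1, needed to duplicate the spindle pole body, averaged 0.47 ± 0.55 in arp6Δ and −0.98 ± 0.43 in swr1Δ (adjusted p = 0.0225). The highest were CTS1 and EGT2, genes for the separation of daughter from mother. CTS1 averaged 0.33 ± 1.32 in arp6Δ and 1.14 ± 0.42 in swr1Δ (adjusted p = 0.0214), and EGT2 averaged 0.03 ± 0.38 in arp6Δ and 1.03 ± 0.23 in swr1Δ (adjusted p = 0.0214).

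**Figure D5:**
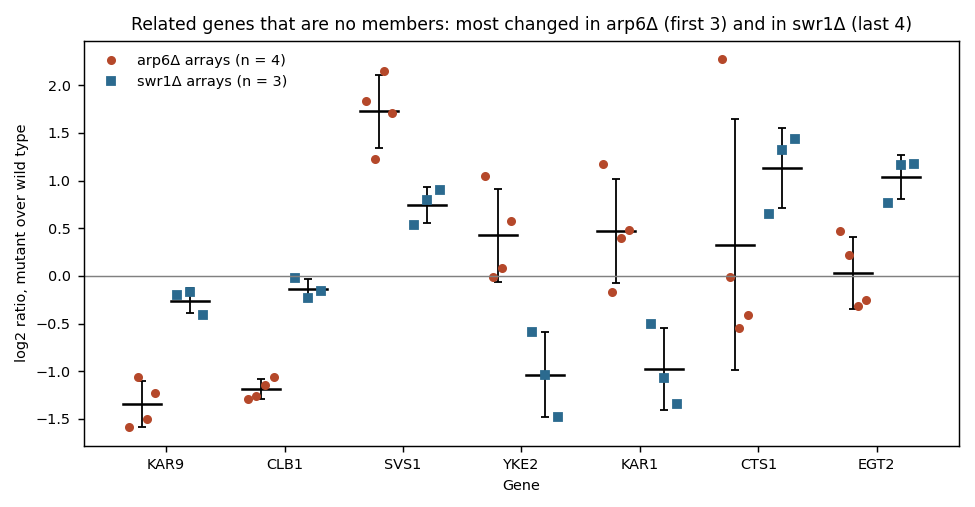
Log2 ratio of mutant over wild type (vertical axis) on every array for the genes beside the members that changed most (horizontal axis), 3 chosen from arp6Δ and 4 from swr1Δ; points are arrays, bars the mean ± SD over 4 arp6Δ or 3 swr1Δ arrays. KAR9 lay between −1.58 and −1.06 in arp6Δ and between −0.41 and −0.17 in swr1Δ, and YKE2 below 0 on all 3 swr1Δ arrays.

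The counts by list stand against 10.9% of all features called lower and 11.2% called higher in swr1Δ, and 3.27% called lower in arp6Δ. No list was tested as a set. In swr1Δ 4 of 13 spindle pole body genes fell and 1 rose, and 3 of 16 other kinetochore genes and 3 of 15 cohesin and condensin genes fell. Of 11 tubulin-folding genes 2 fell and 1 rose, and of 8 further checkpoint genes 2 fell and 1 rose. Of 14 genes of the anaphase-promoting complex 1 fell and 1 rose. The 6 further genes of nuclear positioning had no call in swr1Δ and 1 in arp6Δ, KAR9. Among genes that mark cell cycle phases, 5 of 11 M/G1 genes rose and 1 fell in swr1Δ, with a median of 0.31, and 2 of 12 G1/S genes rose. None of 10 G2/M genes was called in swr1Δ, all 10 means were below 0 with a median of −0.18, and the shares of cells in each phase were not measured. Fewer cells in a phase and less RNA per cell cannot be told apart in these bulk samples.

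Some mating-type and ploidy markers were called, in short lists that were not tested as sets. Of all features 11.2% were called higher in swr1Δ and 3.27% lower in arp6Δ. In swr1Δ 3 of 5 measured MATa genes were called higher (MFA2, STE2 and AGA2), and the median of the list was 0.29, 0.86 and 0.62 on replicates 1 to 3, highest on the arrays where the members' median was lowest. Of 3 measured MATα genes 1 was called lower in arp6Δ, STE3, at −1.55 ± 0.69 (adjusted p = 0.0418), and 1 higher in swr1Δ, SAG1. STE3 was the only 1 of the 3 with an arp6Δ mean below 0. Of 7 haploid-specific genes 1 was called higher in swr1Δ, STE12, and of 8 meiotic genes 1 was called lower in arp6Δ, SPS100, at −2.96 ± 1.54 (adjusted p = 0.041). Both arp6Δ calls were lost on leaving out any 1 arp6Δ array (adjusted p 0.0596 to 0.151), in fits that called 0 to 70 features in all, against 315. The ratios show no level in either strain, so these lists do not show whether a marker is absent, and their part in the members' ratios was not tested.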

How the data were processed

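The authors deposited normalised log2 ratios, with the deletion strain (Cy5) over the wild type (Cy3), 1 per probe and array. Labels and methods name different temperatures and RNA reagents, and the labels were followed. The sources used here do not give the scanner, background correction, normalisation, genome build or signal over background; no dyes were swapped, and the wild type was never a sample of its own, so a fixed dye effect and an effect of the deletion cannot be told apart. Of 6912 probes 5945 had values, and symbols came from the platform annotation, updated through the R64 gene table. A gene needed values on at least 2 arrays of each mutant. Each mutant's log2 ratios were tested against 0, and arp6Δ minus swr1Δ over all arrays, with lmFit and eBayes of limma 3.58.1 (R 4.3.3), two-sided, Benjamini-Hochberg at 0.05. Tables and plots were made with Python 3.11.15, numpy 2.4.6, pandas 2.3.3 and matplotlib 3.10.9.

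Displaced stretches were found with a hidden Markov model over offsets of up to 2 rows, at a probability of 0.95 or more. Each fit was tested on simulated data, 200 of 5879 genes being changed: false calls made up 5.46% for arp6Δ, 3.14% for swr1Δ and 8.88% for the difference. The simulated arrays were independent, without array pairs or displaced rows, so the rates in the real data may differ. Same-numbered arrays of the mutants did not deviate together (correlations of 0.017, 0.046 and −0.049), so no pairing was used. Alternatives were other sets of arrays, scaling, centring, filters, placement of displaced values, blocks, array weights and the methods' t-test. The members and all gene lists were chosen with earlier results of these data known, and are no independent support. Values on every array are given for members called in a mutant, the extreme members of each mutant and the member with the largest mean of each role group. Of related genes, at most the 2 highest and 2 lowest called in each mutant are described.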

Additional observations from a re-analysis of the deposited data

Results flagged for a closer look

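An array stood far from the other 3 in 4 of the 44 members measured on all arp6Δ arrays, where chance marks about 1 in 20 such groups. JNM1 read −0.85 on arp6Δ replicate 3, against −0.27 to −0.34 on the others. SLI15 read 0.11 on replicate 2, against 0.68 to 0.80. DUO1 read −3.92 on replicate 1, against −0.60 to 0.03, in a row whose placement was not settled. MTW1 read 0.26 on replicate 1, against −0.05 to −0.01.

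No member differed between arp6Δ and swr1Δ by limma's test of the difference, but genes beside them did. KAR9 was lower in arp6Δ than in swr1Δ by 1.08 (arp6Δ minus swr1Δ −1.08, adjusted p = 0.0386) and CLB1 likewise (−1.05, adjusted p = 0.0337). The prefoldin gene YKE2 differed by 1.46 (adjusted p = 0.0448). Outside the rule for described genes, and named after their values were seen, the prefoldin gene GIM4 differed by 1.50 (adjusted p = 0.0277, placement not settled), the polo kinase gene CDC5 by 1.26 (adjusted p = 0.0412), the wall gene PIR3 by −1.42 (adjusted p = 0.0421) and the spore gene SPS100 by −3.10 (adjusted p = 0.047, placement not settled). These 7 calls were lost without any 1 swr1Δ array (adjusted p 0.0693 to 0.219) and with array pairs as blocks (0.0903 to 0.169). Each of those fits called only 3 features in all, against 413, so the loss is not particular to these genes. The deleted genes ARP6 (−1.19, adjusted p = 0.0376) and SWR1 (1.96, adjusted p = 0.0205) went with the labels of their arrays.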

How the results depend on the processing

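Members called in arp6Δ, swr1Δ and the difference (1, 9 and 0) and all features called (315, 1303 and 413) depended on which arrays set the spread. Over all 7 arrays arp6Δ had 6 members and 1577 features and swr1Δ 0 and 0. The arrays share only numbers, so the random replicate block over 7 arrays (correlation 0.029) gave 6 members and 1580 features for arp6Δ and 0 and 0 for swr1Δ, and the fixed replicate block for the difference gave 0 and 2. Leaving out 1 array gave 0 members and 0 to 70 features for arp6Δ, 2 to 27 members and 279 to 3137 features for swr1Δ, and 0 to 1 members and 3 to 773 features for the difference. The arp6Δ pairs as random blocks (correlation 0.346) left 0 members and 21 features, and pair blocks for the difference, added after seeing the data, 3 features. One median absolute deviation on every array gave 2 members and 817 features in arp6Δ and 4 members (ASE1, BIR1, JNM1 and KAR3) and 1142 features in the difference. Array weights, which allow for the unequal spread of the mutants, gave the difference 2 members (CTF19 and STU1) and 765 features. Among the fits without 1 array, the difference was called for CTF19 without arp6Δ replicate 1 and for VIK1 without arp6Δ replicate 2. The methods' t-test at 0.05 with 1.25-fold gave 7 members and 1243 features for arp6Δ and 4 and 855 for swr1Δ, and 0 of each after adjustment. Also after seeing the data, arp6Δ replicates 3 and 4 alone gave 10 members and 2547 features, and leaving replicates 1 and 2 out for displaced and unsettled genes gave 485 features in arp6Δ and 1 member (STU1) and 774 features in the difference. The causes were not tested.

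The log2 ratio of NDC80 in arp6Δ turned to 0.17 with displaced values moved back and to 0.21 without replicates 1 and 2, where all genes or displaced and unsettled genes alone lost them. CIN8 in arp6Δ turned to −0.077 when moved back, and without 1 array it lay between −0.019 and 0.45. No called member changed sign, under the alternatives run, in the mutant in which it was called. Each had all arrays of that mutant on the same side of 0, so leaving out arrays could not have changed it. A block of swr1Δ replicates 2 and 3 alone could not be fitted, and no member has several probes to compare. Signal over background is unknown, so dim probes could not be filtered.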

Other observations

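Prefoldin, a list picked out after its values were seen and given without a test, split between the mutants. Of its 6 genes 5 were measured (GIM5 was not named on the platform). All 5 arp6Δ means were above 0, with a median of 0.58, and 4 of the 5 swr1Δ means were below 0, with a median of −0.60. The split was carried by some arrays: the median of the 5 was 1.35, −0.0061, 0.28 and 0.57 on arp6Δ replicates 1 to 4, at wild type on replicate 2, and −0.023, −0.74 and −1.03 on swr1Δ replicates 1 to 3, at wild type on replicate 1. GIM3 averaged 1.18 ± 0.85 in arp6Δ and −0.52 ± 0.43 in swr1Δ, GIM4 averaged 0.55 ± 0.36 in arp6Δ and −0.94 ± 0.17 in swr1Δ, and PFD1 averaged 0.58 ± 0.65 in arp6Δ and −0.60 ± 0.52 in swr1Δ. PAC10 was the exception, at 0.62 ± 0.92 in arp6Δ and 0.34 ± 0.38 in swr1Δ. In limma's fits YKE2 and GIM4 fell in swr1Δ, and none of the 5 was called in arp6Δ.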
